A study of Mus musculus with 30 samples.

Results

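The effect of a selenium diet on hippocampal gene expression was read over all methylmercury doses at once. Hippocampus RNA of 30 male BALB/c mice was sequenced, with 5 mice in each of 6 groups, and all 30 libraries of the series entered the comparison by their treatment label. The 15 mice labelled Se_Ctr, Se_LD and Se_HD were compared with the 15 mice labelled Ctr, LD and HD, and the dose of methylmercury (MeHg) was held as a factor of 3 levels. Ctr, LD and HD mice received no added selenium together with no, low-dose or high-dose mercury, and the Se_ groups are labelled as selenium with no, low-dose or high-dose mercury. For the Ctr, LD and HD groups the methods give a purified feed that was unspiked for Ctr and held 0.28 or 5 mg MeHg per kg for LD and HD, fed over 11 weeks to mice that arrived at an age of 2 to 3 weeks. The series title names the compound as selenium-methionine, and the amount of selenium, like the mercury content of feed for the Se_ groups, is not given in the sources used here. Below, without selenium means without added selenium, and the selenium content of the basal feed itself was not examined. One library was made per RNA sample, and mice are named below by group and library number.

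Selenium enters proteins as selenocysteine, which is inserted at a UGA codon that would otherwise end translation, with the help of a hairpin in the messenger RNA and a dedicated elongation factor. Selenoproteins include glutathione peroxidases and thioredoxin reductases, which reduce peroxides and oxidized thiols, and the brain holds on to selenium when supply is short. Methylmercury binds thiols and selenols with high affinity. Metallothioneins are small cysteine-rich proteins that bind zinc, copper and mercury, and their genes are switched on by metals, glucocorticoids and inflammation. In bulk tissue, fewer cells of a type and less RNA per cell cannot be told apart.

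Reads on genes lay between 5768208 and 11510521 per library without selenium (median 8185465) and between 6559334 and 11331272 with selenium (median 9552582), a log2 difference of 0.13 (exact permutation p within doses = 0.193). The difference in depth was not even over the doses, with medians of 7119788 in Ctr and 9873274 in Se_Ctr, 8185465 in LD and 9600570 in Se_LD, but 10159514 in HD and 9406503 in Se_HD mice. With the log2 reads on genes as a covariate 1023 of the 1386 genes at an unadjusted p under 0.05 for the pooled effect kept that call. A normalized count is a read count divided by a size factor of the library. The tissue label was checked against marker lists, and the summed level of 10 dentate gyrus markers was 4724 to 7380 normalized counts without and 4449 to 6865 with selenium. Markers of neighbouring tissue were present too. The 12 thalamus and habenula markers summed to 1759 to 6362 without selenium (median 2337) and 1959 to 6327 with it (median 2215), and the 11 markers of meninges and fibroblasts to 1998 to 7150 and 1206 to 7749. Their part in the results was not tested. Some libraries stood apart from their own group. Counting genes more than 2-fold from the group median, the Ctr, LD and HD mice had 63 to 666 such genes (median 260) and the Se_ mice had 38 to 354 (median 147). HD library 21, Ctr library 13 and HD library 15 had the most. HD library 21 held Isg15 at 176.3 normalized counts, against at most 36.1 in the other 29 libraries. Ctr library 13 held the mitochondrial ribosomal RNA mt-Rnr2 at 482700 normalized counts against 70320 to 170600 elsewhere, and Ctr library 1 held the pituitary hormone transcripts Pomc, Prl and Gh at 1966, 647 and 3697 normalized counts against at most 14.2, 16.2 and 124 elsewhere. Prl, Gh and mt-Rnr2 were chosen after their values were seen.

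No gene passed a Benjamini-Hochberg adjusted p of 0.05 for the pooled selenium effect among 21383 genes tested with limma (0.0% called), and the lowest adjusted p was 0.72. At an unadjusted p under 0.05, 1386 genes differed, which is 6.48% of those tested. Of these, 603 were higher with selenium (2.82% of those tested) and 783 were lower (3.66%). With the recovered reads, edgeR's quasi-likelihood test called 0 genes at an adjusted p of 0.05 and 1669 at the unadjusted one, and DESeq2 called 0 and 1436. The split of directions moved with the scaling, because 845 genes were higher and 598 lower after quantile normalization. Differences were small. Among 14296 genes that averaged 10 normalized counts or more, 993 passed the unadjusted threshold, with a median size of 0.19 on the log2 scale, and 77 of them exceeded 0.5. Without the 3 libraries farthest from their group the count was 1358.

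Most of these genes differed most at the high mercury dose. Of the 993 genes, 643 (64.8%) had their largest within-dose difference at HD, 184 at Ctr and 166 at LD, beside 43.3% with the largest at HD among all 14296 genes. The same sign at all 3 doses was found for 838 of the 993 (84.4%), beside 30.0% of all 14296, and choosing genes by the pooled effect itself favours this. The test of whether the selenium effect differed between doses passed an unadjusted p of 0.05 for 99 of the 993 genes (9.97%), against 510 of all 14296 (3.57%) and 4.06% of all genes tested, and no gene passed the adjusted one (lowest adjusted p = 0.0908 with limma). By edgeR 3 genes and by DESeq2 34 genes passed it. Within single doses, 4.0% of genes passed the unadjusted threshold at Ctr, 2.86% at LD and 8.38% at HD, where 70 also passed the adjusted one. Without the HD dose the pooled effect held 676 genes, and 350 of the 1386 kept an unadjusted p under 0.05 in the same direction. Without the 3 farthest libraries 827 of the 1386 kept it.

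The 3 within-dose contrasts share no library, so their directions can be set side by side. Genes with an unadjusted p under 0.05 at HD had the same sign at Ctr for 903 of 1351 (66.8%, against 56.1% of all 14296 genes) and at LD for 836 of 1351 (61.9%, against 56.2%). Genes picked at Ctr had the same sign at LD for 193 of 450 (42.9%, against 47.7% of all genes). The genes with the lowest p for the pooled effect included some with even differences over the doses, such as Polr2b and Maf, and some with a large difference at HD, such as Sepw1, Mt2 and C1qc.

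**Figure D1:**
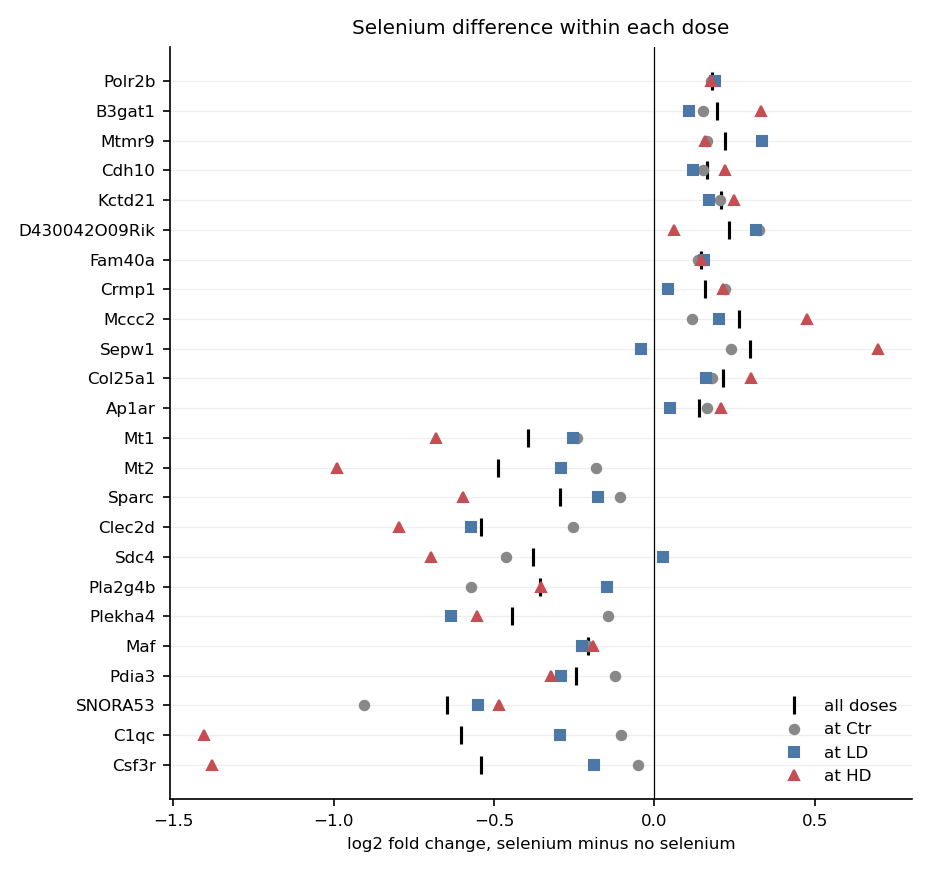
Log2 fold change with selenium at each dose (x axis) for the 12 higher and the 12 lower genes with the lowest p for the pooled effect and an average of 10 normalized counts or more; circles are Ctr, squares LD, triangles HD, and bars the pooled value. Polr2b, Fam40a and Maf lie at nearly one value for all doses, while Mt2, C1qc and Csf3r reach -0.99, -1.41 and -1.38 at HD.

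Of 24 mouse selenoprotein genes, 21 were matched in the table, and all 21 have an internal in-frame TGA in the GENCODE M1 gene models of build NCBIM37. The codon is shown for Sepw1 and Txnrd1, the selenoprotein genes at an unadjusted p under 0.05, and for Gpx1 and Gpx4, which did not pass, as the coding strand 5′ to 3′ with the selenocysteine TGA in capitals and up to 15 coding bases on either side. In Sepw1 it is codon 13 of 89 in exon 2 (chr7:16505813-16505815, minus strand), and in Txnrd1 codon 498 of 500 in exon 15 (chr10:82358782-82358784, plus strand), so that the Txnrd1 stretch ends with the stop codon.
Sepw1: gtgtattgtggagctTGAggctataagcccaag
Txnrd1: ctccagtctggctgcTGAggttaa
Gpx1: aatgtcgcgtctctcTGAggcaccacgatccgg
Gpx4: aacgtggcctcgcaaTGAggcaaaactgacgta

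Sepw1 (chr7:16502557-16507751), which encodes the small redox selenoprotein W of brain and muscle, was the selenoprotein transcript with the lowest p. Its level was 2386 to 7285 normalized counts without selenium (median 5091) and 5045 to 6768 with selenium (median 5423), and 13 of 15 Se_ mice lay above the median of the others. The log2 fold change was 0.30 ± 0.09 (SE, adjusted p = 0.72), with an exact permutation p within doses of 0.00611 over 5 mice in each group. The difference lay mainly at HD. HD mice had 2386, 2980, 2980, 3375 and 4564 normalized counts and Se_HD mice had 5054, 5095, 5108, 5145 and 5423, so the groups did not overlap. Ctr mice had 3858, 5091, 5297, 5344 and 5844 and Se_Ctr mice 5407, 5447, 6021, 6224 and 6768, which overlap. At LD the sign was opposite, with 4198 to 7285 normalized counts in LD and 5045 to 6063 in Se_LD mice. Within-dose log2 fold changes were 0.24, -0.04 and 0.70 at Ctr, LD and HD (interaction adjusted p = 0.62). Without the HD dose the value was 0.10 and did not pass. Counts of Se_ mice above or below the median of the others, here and below, use 1 median over all doses. They therefore ignore dose, and choosing genes by a low p favours high counts.

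Txnrd1 (chr10:82296696-82360469), the cytosolic thioredoxin reductase, was 9.33% higher with selenium. Mice without selenium had 346 to 616 normalized counts (median 414) and Se_ mice 401 to 502 (median 473), and 14 of 15 Se_ mice lay above the median of the others. The log2 fold change was 0.13 ± 0.06 (SE, adjusted p = 0.76) with an exact permutation p of 0.0298, and it was 0.11, 0.20 and 0.08 at Ctr, LD and HD. The highest level of all 30 mice was in HD library 21, and without that library the difference was 0.17. Leaving out single other mice took the unadjusted p above 0.05 in 3 of 30 fits. The call was also lost in 4 of 19 other settings of the processing.

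The other glutathione peroxidases and thioredoxin reductases did not pass the unadjusted threshold. Gpx4, which reduces lipid peroxides, was at 889 to 1467 normalized counts (median 1202) without and 813 to 1327 (median 1086) with selenium, with a log2 fold change of -0.09 and a 95% interval from -0.23 to 0.06. Gpx1, a soluble peroxidase used as a marker of selenium status, had a log2 fold change of 0.09 with an interval from -0.16 to 0.35. The within-dose values of Gpx1 were -0.12, -0.04 and 0.45, and those of the secreted Gpx3 were -0.13, 0.06 and 0.35. Mitochondrial Txnrd2 had a log2 fold change of 0.06 (95% interval -0.10 to 0.22). Apart from Sepw1, no member of the second list of selenoproteins passed, and its 14 members were split into 7 above and 7 below 0. Sepp1, the selenium carrier of plasma and brain, was at 1683 to 2779 normalized counts without and 1688 to 2454 with selenium (log2 fold change -0.05, interval -0.17 to 0.07). Sep15, a protein of the endoplasmic reticulum, had 0.08 (-0.02 to 0.18). Dio2, which converts thyroxine to its active form, had -0.12 (-0.29 to 0.05), and Dio3, which inactivates it, had -0.30 with an interval from -1.02 to 0.42.

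Of 14 genes for selenium transport and selenocysteine synthesis, 1 was higher at an unadjusted p under 0.05 and 0 were lower. This was Eefsec (chr6:88207328-88396533), the elongation factor that brings selenocysteine to the ribosome. It had 47.3 to 88.0 normalized counts without selenium (median 73.2) and 59.5 to 93.3 with selenium (median 75.8), with a log2 fold change of 0.23 ± 0.09 (SE, adjusted p = 0.74, exact permutation p = 0.013) and within-dose values of 0.18, 0.25 and 0.27. It did not pass an unadjusted limma p of 0.05 without the 3 farthest libraries (0.16) or without the HD dose (0.22). The exact permutation p without the HD dose was 0.0439. Secisbp2, which binds the hairpin that recodes UGA, had 0.14 (interval -0.03 to 0.31). Lrp8, the receptor through which neurons take up selenoprotein P, had -0.03 (interval -0.15 to 0.10), and Scly, which frees selenium from selenocysteine, had -0.10 (-0.28 to 0.07). Selenbp1, which binds selenium without being a selenoprotein, had -0.25 (-0.53 to 0.04). In all, 3 of 35 genes on the 3 selenium lists were higher and 0 lower, beside 2.82% and 3.66% of all genes.

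**Figure D2:**
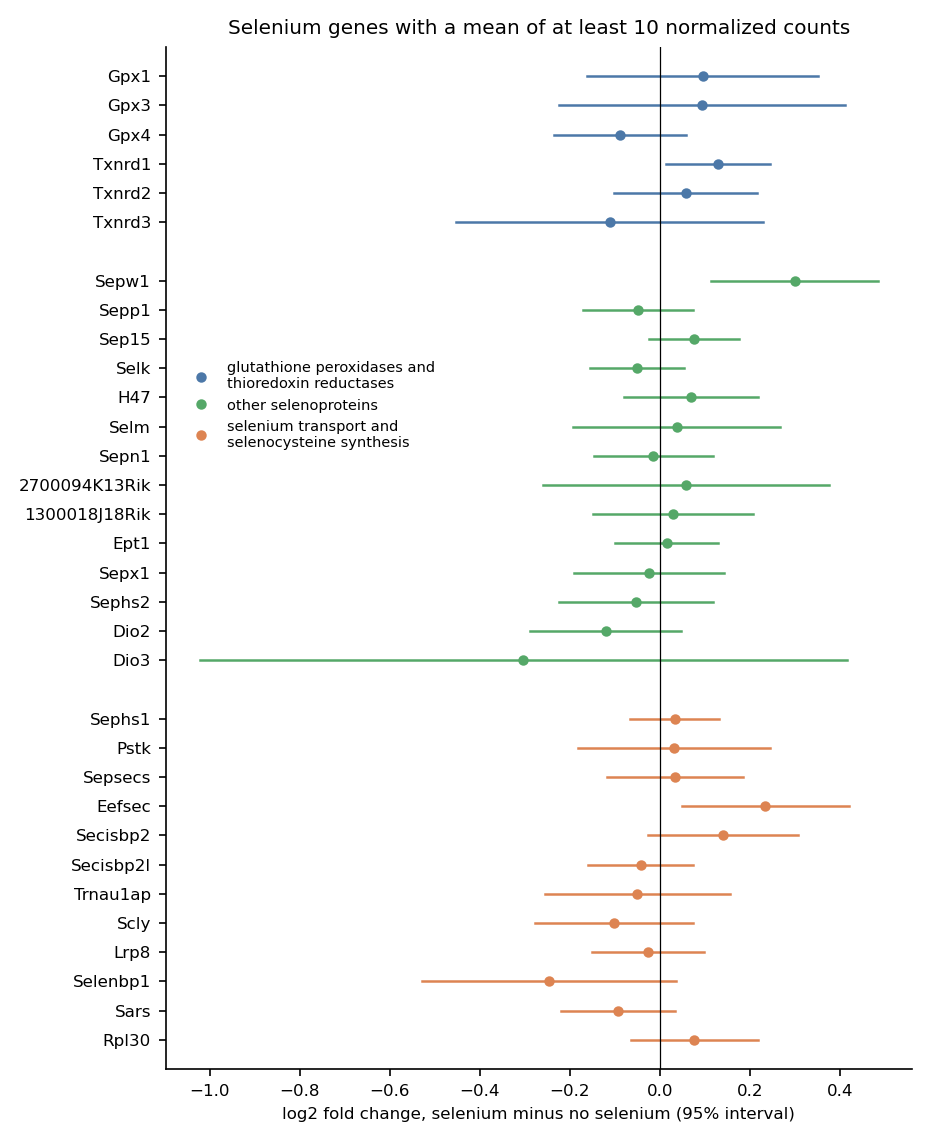
Pooled log2 fold change with selenium (x axis, points) and its 95% interval (lines) for the selenium genes that averaged 10 normalized counts or more, coloured by list. The intervals of Sepw1, Txnrd1 and Eefsec lie above 0, and those of the other genes include 0.

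The 20 genes of the methionine cycle and transsulfuration, through which selenium-methionine can be metabolized alongside methionine, held no gene at an unadjusted p under 0.05, and the median log2 fold change of the 15 that averaged 10 counts or more was 0.03, beside 0.003 over all 14296 genes. Cbs, which starts transsulfuration, had a log2 fold change of -0.11 (95% interval -0.21 to 0.003). None of 25 genes of glutathione synthesis and glutathione transfer passed. Of 23 targets of the oxidative stress factor NRF2, 1 was higher (Txnrd1) and 2 were lower, beside 2.82% and 3.66% of all genes. The lower ones were Srxn1, which restores overoxidized peroxiredoxins and lay below the median of the other mice in 15 of 15 Se_ mice (log2 fold change -0.14), and Ftl1, the ferritin light chain (-0.20), which has many processed copies in the genome and whose reads may be shared with them. Without the HD dose neither passed. Ftl1 also lost its unadjusted call in 6 of 30 fits that left out 1 mouse and without the 3 farthest libraries (-0.12).

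Metallothioneins headed the lower genes. The 300 bases around their start sites (250 before and 50 after, RefSeq table of build GRCm38.p6, plus strand) are shown because both genes were lower, with every match to the core of the metal response element in capitals. The core was searched as TGCACNC and TGCGCNC on both strands. Mt1 (chr8:94178839-94179138 in that build) holds 3 matches and Mt2 (chr8:94172368-94172667) holds 4. At least 3 matches occur in 1.97% of 32851 promoters of this length and at least 4 in 0.517%.
Mt1: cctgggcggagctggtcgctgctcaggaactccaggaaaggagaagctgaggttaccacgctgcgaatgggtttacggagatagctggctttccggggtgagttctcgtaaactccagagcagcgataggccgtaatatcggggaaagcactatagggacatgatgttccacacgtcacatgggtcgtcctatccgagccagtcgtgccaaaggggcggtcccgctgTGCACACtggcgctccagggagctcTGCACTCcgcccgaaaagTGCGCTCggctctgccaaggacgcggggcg
Mt2: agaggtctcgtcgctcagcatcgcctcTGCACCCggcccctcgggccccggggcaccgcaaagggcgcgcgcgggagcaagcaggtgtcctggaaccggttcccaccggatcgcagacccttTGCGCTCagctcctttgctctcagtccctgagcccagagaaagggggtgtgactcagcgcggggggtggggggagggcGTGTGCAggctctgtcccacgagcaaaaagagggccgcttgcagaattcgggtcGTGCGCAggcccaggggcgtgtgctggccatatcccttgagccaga

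Mt1 was at 823 to 2141 normalized counts without selenium (median 1141) and 669 to 1090 with selenium (median 923). All 15 Se_ mice lay below the median of the others, and the log2 fold change was -0.39 ± 0.10 (SE, adjusted p = 0.72, exact permutation p = 0.00102). Mt2 was at 589 to 2615 without selenium (median 771) and 401 to 748 with selenium (median 703), again with 15 of 15 Se_ mice below, and its log2 fold change was -0.49 ± 0.13 (SE, adjusted p = 0.72, exact permutation p = 0.000654). The differences were negative at each dose and largest at HD. They were -0.24, -0.25 and -0.68 for Mt1 and -0.18, -0.29 and -0.99 for Mt2 at Ctr, LD and HD. HD mice had Mt2 at 940.4, 975, 1082, 1398 and 2615 normalized counts and Se_HD mice at 542, 566, 703, 724 and 748, with no overlap. Ctr mice had 589, 609, 651, 761 and 903 and Se_Ctr mice 401, 559, 704, 736 and 737, which do overlap. The Se_Ctr mice at 704, 736 and 737 lay above the Ctr median of 651. Without the HD dose the log2 fold changes were -0.25 for Mt1 (limma p = 0.0195, exact permutation p = 0.0453) and -0.24 for Mt2 (limma p = 0.0379, exact permutation p = 0.0763). Of the 13 genes for metallothioneins and metal handling, 3 were lower (Mt1, Mt2 and Ftl1) and 1 was higher, beside 3.66% and 2.82% of all genes. The median of the list was -0.04 and moved with single exclusions, to -0.0014 without HD library 21, to -0.07 without Ctr library 7 and to 0.02 without the HD dose.

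Among the higher genes, Polr2b (chr5:77739172-77778349), a catalytic core subunit of RNA polymerase II, had the lowest p and the most even difference. It lay between 477 and 602 normalized counts without selenium (median 557) and between 567 and 703 with selenium (median 620.1), and all 15 Se_ mice were above the median of the others. Its log2 fold change was 0.18 ± 0.04 (SE, adjusted p = 0.72, exact permutation p = 7.87e-05), with 0.18, 0.19 and 0.18 at Ctr, LD and HD. The groups overlapped in each dose, since the highest Ctr, LD and HD mice had 599, 595 and 602 normalized counts and the lowest Se_Ctr, Se_LD and Se_HD mice 567, 589 and 589. Cdh10, a neuronal cadherin, and Crmp1, a protein of axon guidance, were each above the median in 15 of 15 Se_ mice, with log2 fold changes of 0.16 and 0.16. Kctd21, Fam40a and Mtmr9, the last related to myotubularin phosphatases, had 0.21, 0.15 and 0.22, and the within-dose values of Fam40a were 0.14, 0.16 and 0.15. B3gat1, which builds the HNK-1 carbohydrate of neural cell adhesion molecules, had 0.20. Mccc2, a subunit of the mitochondrial enzyme that breaks down leucine, had 0.26, with 0.12 at Ctr and 0.48 at HD. Col25a1, a brain collagen, had 0.21 and Ap1ar, an adaptor of vesicle coats, 0.14. Of the 12 higher genes with the lowest p, 6 kept an unadjusted p under 0.05 without the HD dose, Polr2b, Mtmr9, Cdh10, Kctd21 and Fam40a among them, and all 12 kept it without the 3 farthest libraries.

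Maf (chr8:118206842-118231694), a transcription factor of neurons, glia and macrophages, was the lower gene with the most even difference. It was at 201 to 378 normalized counts without selenium (median 284) and 206 to 296 with selenium (median 227), with 12 of 15 Se_ mice below the median of the others. The log2 fold change was -0.21 ± 0.06 (SE, adjusted p = 0.72, exact permutation p = 0.000463), with -0.21, -0.23 and -0.19 at the 3 doses. At HD the 5 mice without selenium had 299, 301, 301, 353 and 378 normalized counts and those with selenium 262, 281, 290, 292 and 296, so the groups did not overlap. At Ctr and LD they did. Pdia3, a disulfide isomerase of the endoplasmic reticulum, was below the median of the others in 15 of 15 Se_ mice (log2 fold change -0.25, with -0.12, -0.29 and -0.32 by dose). Its calcium-binding partner Calr had -0.30 and the pleckstrin domain protein Plekha4 had -0.44. Of 21 genes of the integrated stress and unfolded protein response, 2 were lower, Calr among them, and 0 higher, beside 3.66% and 2.82% of all genes. Pdia3 is not on that list. Of the 19 members that averaged 10 counts or more, 15 had a negative value and 4 a positive one. Their median was -0.07, with -0.09, 0.05 and -0.09 at Ctr, LD and HD.

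Sparc, a matricellular protein of astrocytes, microglia and vessels, was at 1875 to 4793 normalized counts without selenium (median 2590.0) and 1643 to 2499 with selenium (median 2125), and all 15 Se_ mice were below the median of the others. Its log2 fold change of -0.29 (exact permutation p = 0.00156) was made of -0.11, -0.18 and -0.60 at Ctr, LD and HD, and without the HD dose it was -0.14 and did not pass. The syndecan Sdc4 had -0.38, with -0.46, 0.03 and -0.70 by dose. Clec2d, a lectin-like ligand of lymphocyte receptors, had -0.54 and kept a negative difference at each dose (-0.25, -0.57 and -0.80). Of the 12 lower genes with the lowest p, 8 kept an unadjusted p under 0.05 without the HD dose, and all 12 kept it without the 3 farthest libraries.

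**Figure D3:**
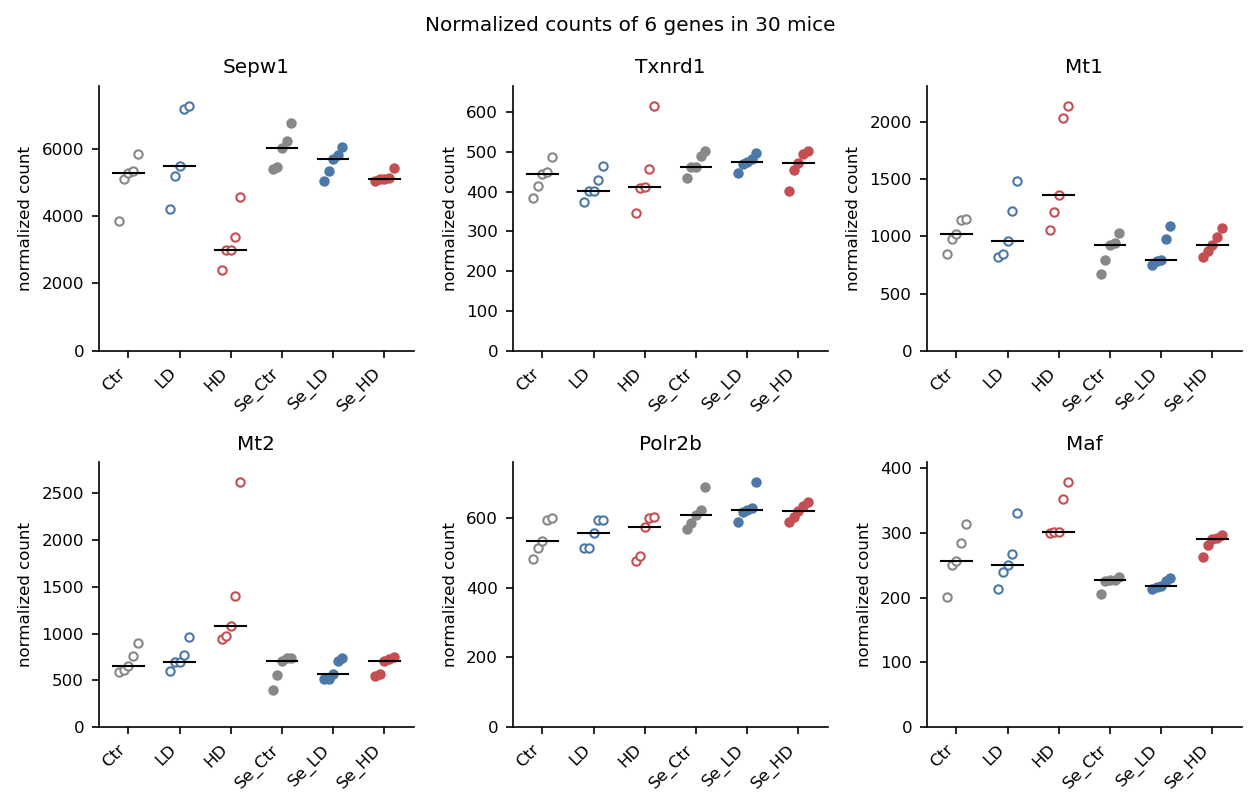
Normalized counts (y axis, from 0) of 6 genes in each of the 30 mice by group; open points are mice without selenium, filled points mice with selenium, and bars mark the group median. HD mice lie below Se_HD mice for Sepw1 and above them for Mt2 and Maf, and Polr2b is higher in each Se_ group by its median.

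Of 19 interferon response genes tested, 9 were lower and 0 higher at an unadjusted p under 0.05, beside 3.66% and 2.82% of all genes. All 16 that averaged 10 counts or more had a negative log2 fold change, with a median of -0.37 beside 0.003 over the 14296 genes. The median was -0.31, 0.04 and -0.83 at Ctr, LD and HD. HD library 21 weighed on this list, and without it 5 of 19 were lower, with a median of -0.23 and 16 of 16 still negative. Without the 3 farthest libraries 4 were lower, and without the HD dose also 4, with 12 of 16 negative. Among the lower genes with a negative difference at each dose were Isg15, a ubiquitin-like modifier, Rsad2, an antiviral enzyme, and Ifit3, which binds viral RNA complexes.

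The 300 bases around the start sites of Isg15 (chr4:156200769-156201068, minus strand) and Ifit3 (chr19:34583279-34583578, plus strand) are shown from the same RefSeq table of GRCm38.p6, since both genes were lower. Capitals mark matches to the core of the interferon-stimulated response element, searched as GAAA repeated after any 2 bases, on both strands, with overlaps counted. Isg15 holds 3 overlapping matches, Ifit3 holds 2 and Rsad2 holds 1. At least 1 match occurs in 3.44% of the 32851 promoters, at least 2 in 0.225% and at least 3 in 0.0152%.
Isg15: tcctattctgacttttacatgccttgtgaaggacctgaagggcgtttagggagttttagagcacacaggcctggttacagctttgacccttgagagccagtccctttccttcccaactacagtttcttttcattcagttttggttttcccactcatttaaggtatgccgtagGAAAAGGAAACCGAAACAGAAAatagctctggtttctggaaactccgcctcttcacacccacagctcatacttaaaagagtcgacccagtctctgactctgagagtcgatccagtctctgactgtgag
Ifit3: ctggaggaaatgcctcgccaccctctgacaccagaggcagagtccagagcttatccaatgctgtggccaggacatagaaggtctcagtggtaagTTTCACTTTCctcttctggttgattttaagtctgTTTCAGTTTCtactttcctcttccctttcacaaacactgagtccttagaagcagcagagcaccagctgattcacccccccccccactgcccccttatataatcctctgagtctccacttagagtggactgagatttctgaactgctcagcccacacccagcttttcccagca

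Isg15 had 16.9, 17.0, 17.9, 22.7 and 36.1 normalized counts in Ctr mice and 10.6, 10.8, 12.3, 13.2 and 14.7 in Se_Ctr mice, which did not overlap. LD mice had 11.9 to 21.2 and Se_LD mice 7.39 to 15.8, and HD mice had 15.7, 17.5, 19.3, 30.0 and 176.3 against 9.99, 14.2, 14.5, 20.5 and 22.5 in Se_HD mice, which overlapped. The pooled log2 fold change was -0.69 ± 0.23 (SE, adjusted p = 0.72, exact permutation p = 0.000683), and it was -0.49 without HD library 21 and -0.56 without the HD dose (exact permutation p = 0.00167). Ifit3 had 10.2, 11.3, 12.1, 20.3 and 23.8 normalized counts in Ctr mice and 5.70, 5.79, 7.78, 8.21 and 8.96 in Se_Ctr mice, again without overlap. Its pooled value was -0.66 ± 0.25 (SE, exact permutation p = 0.0131) and without the HD dose -0.66 (exact permutation p = 0.00614). Rsad2 had a pooled value of -0.63, with -0.64, -0.43 and -0.82 by dose, and 14 of 15 Se_ mice lay below the median of the others. Rsad2 was at 5.19 to 62.0 normalized counts without and 4.32 to 16.3 with selenium, so that counting error is large for these genes.

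Of 16 microglia markers, 7 were lower and 0 higher (all genes 3.66% and 2.82%), 15 had a negative log2 fold change, and the median was -0.21. By dose the median was 0.05, 0.04 and -0.82 at Ctr, LD and HD, and without the HD dose 0 of 16 passed and the median was 0.07. The complement gene C1qa was at 179, 222, 244, 253 and 275 normalized counts in Ctr mice and 215, 220, 247, 253 and 259 in Se_Ctr mice, which overlap. In HD mice it was at 343, 398, 470.2, 877 and 1227, and in Se_HD mice at 242, 243, 255, 256 and 281, without overlap. Pooled log2 fold changes were -0.49 for C1qa, -0.58 for C1qb and -0.60 for C1qc, and those of Tyrobp, an adaptor of microglial receptors, and Mpeg1, a macrophage pore protein, were -0.50 and -0.52. Mpeg1 and Tyrobp had the lowest p for the difference between doses (interaction adjusted p = 0.0908 for both), with within-dose values of -0.12, -0.01 and -1.44 for Mpeg1 and 0.06, -0.01 and -1.55 for Tyrobp. Without the HD dose the value of Tyrobp was 0.02. The receptor Clec7a was at 0 to 13.6 normalized counts in Ctr and LD mice, at 4.36, 17.5, 39.4, 76.7 and 92.2 in HD mice and at most 5.38 in any Se_ mouse, with a pooled value of -1.21 and -0.34 without the HD dose. Csf3r, a receptor for a granulocyte growth factor, had -0.54, with -1.38 at HD. The summed level of the microglia markers was 3671, 3791 and 7358 normalized counts on average in Ctr, LD and HD mice and 3806, 3827 and 3997 in the Se_ groups in the same order.

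Of 13 astrocyte markers, 4 were lower and 0 higher (all genes 3.66% and 2.82%), and all 13 had a negative log2 fold change with a median of -0.09, while after quantile normalization 12 were negative and 1 positive. The count was 2 without Ctr library 1, Se_Ctr library 22 or Se_HD library 24, and without the HD dose it was 1, with a median of -0.02. The summed level of the astrocyte list averaged 107300 normalized counts in HD mice and 82760 to 90260 in the other groups. Gfap, the intermediate filament of astrocytes, carried the largest difference. It was at 4080, 5143, 7281, 12450 and 32820 normalized counts in HD mice and at 2264, 2491, 2499, 2546 and 2909 in Se_HD mice. In the other groups it was at 1337 to 2165, below every Se_HD mouse, with no separation between the diets. Its log2 fold changes were 0.03, -0.07 and -1.84 at Ctr, LD and HD, and without the HD dose the pooled value was -0.02. Cd37, a tetraspanin of leukocytes, did not pass in the pooled comparison (-0.18) but had -0.01, 0.53 and -1.05 by dose (interaction adjusted p = 0.16).

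**Figure D4:**
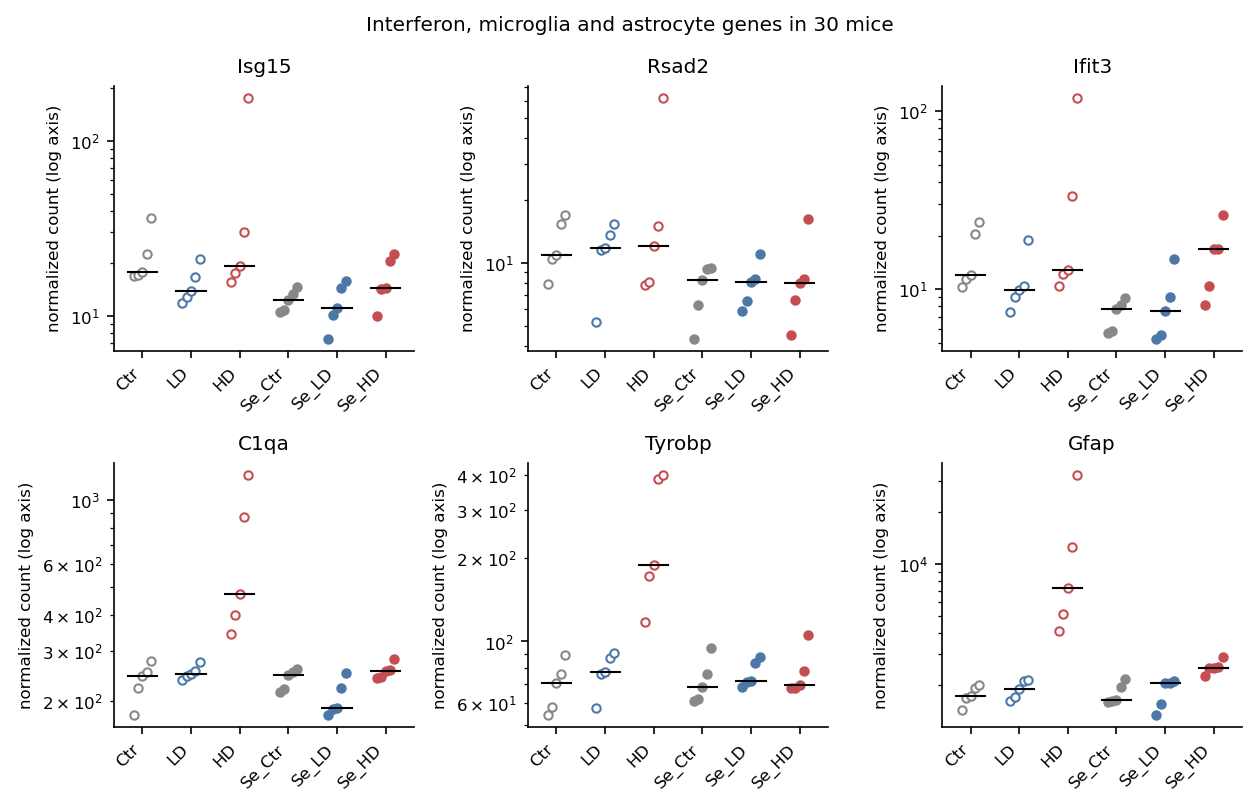
Normalized counts (y axis, logarithmic) of 3 interferon response genes and of 3 glial genes in each of the 30 mice by group; open points are mice without selenium, filled points mice with selenium, and bars mark the group median. C1qa, Tyrobp and Gfap differ between the diets mainly at HD, and Gfap in Se_HD mice still lies above the Ctr, LD, Se_Ctr and Se_LD mice. Isg15 and Ifit3 separate Ctr from Se_Ctr mice and overlap between the diets at LD and HD.

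None of 8 excitatory neuron markers passed, and of 14 markers of inhibitory neurons 2 were higher and 0 lower, where 2.82% of all genes were higher and 3.66% lower. The inhibitory markers had 10 positive and 4 negative values and a median of 0.03, with -0.02, -0.04 and 0.21 at Ctr, LD and HD. Gad1, which makes the transmitter GABA, had a log2 fold change of 0.15, with -0.06, 0.08 and 0.42 by dose. HD mice had 1848, 1888, 2005, 2018 and 2269 normalized counts of Gad1 and Se_HD mice 2433, 2618, 2619, 2745 and 3050, without overlap, and without the HD dose the value was 0.01. The receptor subunit Gabra5, which is enriched in hippocampal pyramidal cells, had 0.22 (0.23, -0.02 and 0.44 by dose) and was the 1 of 25 GABA and glutamate receptor subunits that passed, beside 6.48% of all genes in either direction. Of 9 CA1 markers 2 were higher and 0 lower (all genes 2.82% and 3.66%), Man1a with 0.23 and Fibcd1 with 0.26. The 8 that averaged 10 counts or more were split into 4 positive and 4 negative values with a median of 0.05, which ran from -0.0079 to 0.098 when single mice were left out. The summed level of the CA1 list was 5075 to 7296 normalized counts without and 5115 to 7679 with selenium. Of 15 neuropeptide genes 1 was higher and 0 lower (all genes 2.82% and 3.66%), and 8 of the 13 that averaged 10 counts or more had a negative value, with a median of -0.17. That median was unsteady, at -0.22 to -0.05 when single mice were left out. The higher one, the opioid peptide precursor Pdyn of granule cells, had 0.40, with 0.14, 0.24 and 0.82 by dose, and HD mice had 16.3, 35.8, 36.3, 38.6 and 39.3 normalized counts against 42.7 to 75.1 in Se_HD mice. Without the HD dose Gabra5, Pdyn, Man1a and Fibcd1 did not pass.

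Among clock genes 2 of 17 were higher and 1 was lower, beside 2.82% and 3.66% of all genes. Arntl, the activator of the clock, had 0.24 and the repressor Bhlhe41 had -0.27, and their signs at LD were opposite to those at Ctr and HD (0.34, -0.12 and 0.49 for Arntl, -0.29, 0.12 and -0.63 for Bhlhe41). Without the HD dose their values were 0.11 and -0.09, and none of the called clock genes passed. Arntl also did not pass without the 3 farthest libraries (0.18). None of 18 immediate early genes and none of 23 cholesterol synthesis genes passed. The time of day of sampling is not given in the sources used here.

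Of 40 cytosolic ribosomal protein genes, 3 were lower and 0 higher, beside 3.66% and 2.82% of all genes, and 32 of the 38 that averaged 10 counts or more had a negative log2 fold change, with a median of -0.05. Without Ctr library 25, 5 were lower with a median of -0.08, and without LD library 8 the median was also -0.08. It was -0.03 without Se_Ctr library 28 or Se_HD library 18, and without the HD dose 1 gene was lower with a median of -0.02. Rpl5 was lowest in p, at 72.6 to 148 normalized counts without selenium (median 94.99) and 67.0 to 97.8 with selenium (median 82.0). Its log2 fold change was -0.27 ± 0.08 (SE, exact permutation p = 0.00113), with -0.22, -0.26 and -0.33 by dose, and that of Rpl35 was -0.27. Ribosomal protein genes have processed copies elsewhere in the genome, so their reads may be shared. Transcripts of the mitochondrial genome had a median of -0.12 (0.04, -0.29 and -0.11 at Ctr, LD and HD) and 12 of 12 negative values, with 1 of 13 lower (mt-Nd3, -0.24), but after quantile normalization the median was 0.04 and 8 of 12 were positive. Without the LD dose the median was -0.04, with 3 of 12 positive and 0 lower. The count of lower transcripts was unsteady, with 5 of 13 without HD library 21, 3 with edgeR, 6 with DESeq2 and 0 with the log2 reads on genes as a covariate. It was 0 without the HD dose, with a median of -0.13, and 2 without the Ctr dose. It was also 0 without Ctr library 25 or LD library 8, 3 without LD library 2, and 2 without any of Ctr libraries 1, 7, 13 and 19, LD library 14, Se_Ctr libraries 4, 10 and 16, and Se_LD library 11. mt-Nd6 had -0.28 (95% interval -0.56 to 0.00093). Of 34 nuclear genes for respiratory chain subunits 2 were higher (2.82% of all genes), Uqcrc2 (0.10) and Ndufs1 (0.10), and both were above the median in 13 of 15 Se_ mice.

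Several of the largest differences belonged to noncoding transcripts. The RNA component of RNase MRP had a log2 fold change of -1.16 and the noncoding transcript AC027184.1 had -1.01, both largest at Ctr (-2.21 and -1.97) and small at HD (-0.14 and -0.30). HD library 21 was lowest of the HD mice for both, with 6.53 normalized counts of the RNase MRP RNA against 34.0 to 191 in the other HD mice and 15.5 of AC027184.1 against 65.4 to 286.5. Without that library the pooled values were -1.40 and -1.21. The small nucleolar RNA SNORA53 had -0.65. AC027184.1 was at 1086 normalized counts in Ctr library 13, the library with the highest mt-Rnr2, and at 15.5 to 286.5 in the other mice without selenium, and the labels name a stranded mRNA kit. How far library composition took part in these values was not tested. Pomc, chosen by the rule for its large difference, had -1.12, and without Ctr library 1 it was -0.57. Hemoglobin Hbb-b1 had -0.40 (-0.85, 0.05 and -0.40 by dose), and Olig2, a factor of the oligodendrocyte lineage, had -0.25. Of 8 markers of oligodendrocyte precursors 2 were lower and 0 higher (all genes 3.66% and 2.82%), with 6 negative and 2 positive values and a median of -0.10. Without the HD dose neither of these 2 passed, and Olig2 lost its unadjusted call in 4 of 30 fits that left out 1 mouse. Of 9 neocortex markers 1 was lower and 0 higher, with 5 negative and 3 positive values and a median of -0.07 over 8 markers. That median ran from -0.11 to -0.0074 when single mice were left out. The lower one was Cux2, a factor of upper cortical layers, with -0.32. Cux2 lost its unadjusted call in 5 of 30 fits that left out 1 mouse and in 4 of 19 other settings.

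**Figure D5:**
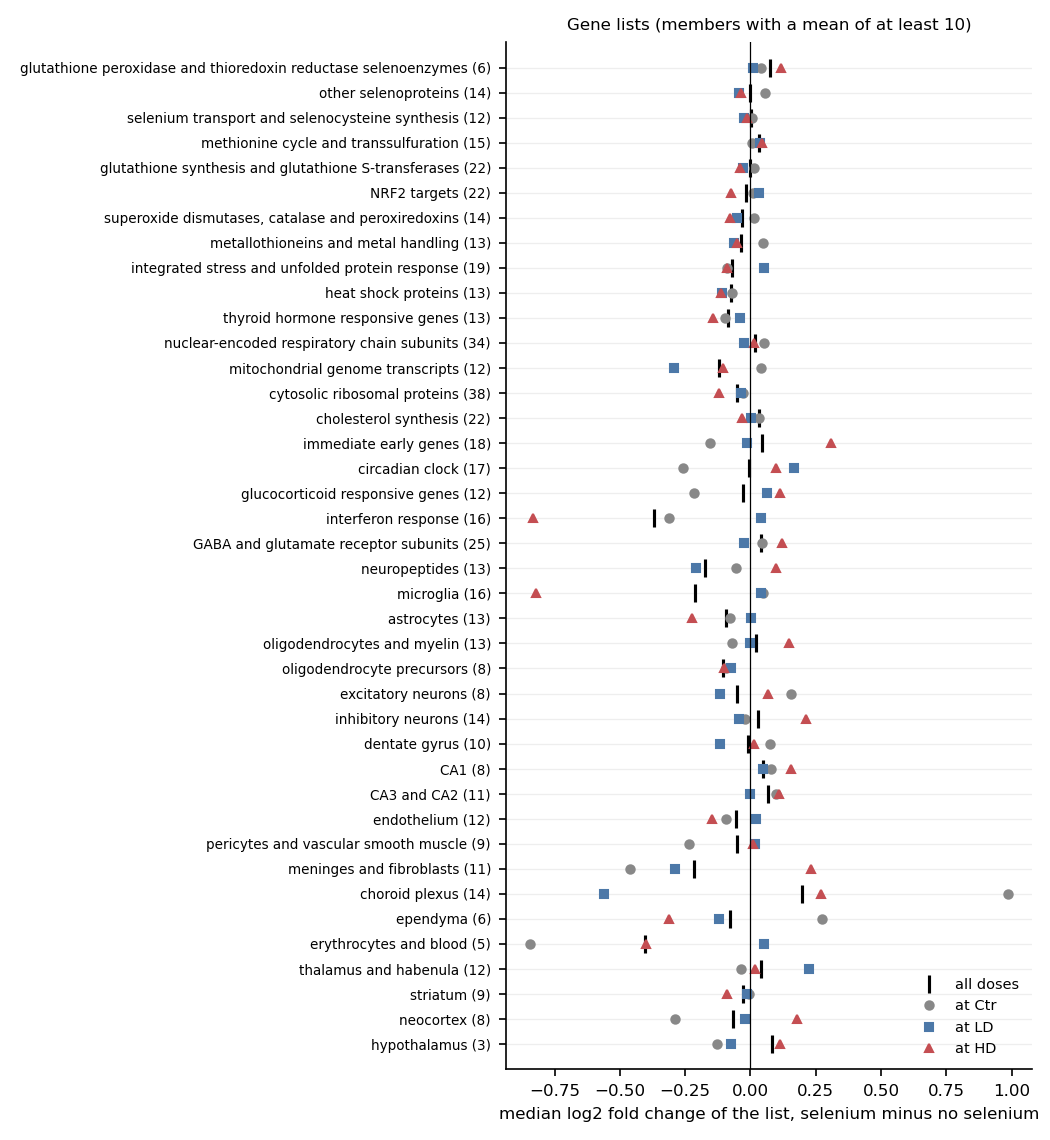
Median log2 fold change with selenium (x axis) of 40 gene lists at each dose (circles Ctr, squares LD, triangles HD) and pooled (bars), over members that averaged 10 counts or more, whose number stands in parentheses. Interferon response and microglia lie at -0.83 and -0.82 at HD, and the selenium lists stay within 0.12 of 0 at each dose.

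The choroid plexus list, whose summed level ran from 684 to 32680 normalized counts without and 343 to 39440 with selenium, had 0 of 14 genes called, with medians of 0.99, -0.56 and 0.27 at Ctr, LD and HD. Erythrocyte and blood markers had 2 of 10 lower (3.66% of all genes), of which Hbb-b1 lost its unadjusted call in 12 of 30 fits that left out 1 mouse, and their summed level was 154 to 663 without and 137 to 333 with selenium. The part of blood in the values above was not tested. With a choroid plexus score as a covariate 1321 of the 1386 genes kept an unadjusted p under 0.05.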

How the data were processed

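RNA of 30 hippocampi was sequenced from stranded libraries (75-base single-end reads; the labels name an mRNA kit, the methods an RNA kit). Per the labels and methods, the authors trimmed reads with Trim Galore 0.4.2, aligned them with HISAT2 to build NCBIM37 and counted genes with featureCounts; the strand setting of the counting is not given in the sources used here. The deposited signal values are read counts that the authors divided by a DESeq2 size factor (0.588 to 1.35), and whole reads were recovered from them with a tolerance of 0.02. The table holds 21412 genes, 21326 with a symbol, and every column was mapped to a sample.

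Here 21383 genes whose normalized counts summed to 10 or more were fitted on log2(normalized count + 1) with limma 3.58.1 (dose and selenium as terms, trended eBayes, Benjamini-Hochberg adjustment) in R 4.3.3. Fold changes on this scale understate differences of low genes. The selenium-by-dose test was an F test, and within-dose contrasts came from a fit of 6 group means. Single genes were also tested by an exact two-sided permutation of the selenium label within doses (16003008 assignments). A 95% interval is limma's. Scripts were tested on simulated data. Count models of those whole reads (DESeq2 1.42.0, and quasi-likelihood in edgeR 4.0.16), other scalings, pseudocounts, filters and covariates, and leaving out each mouse were alternatives. The 3 dose-wise exclusions and the exclusion of 3 libraries were chosen after seeing the data.

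Named genes were the 12 higher and 12 lower with the lowest p among genes that averaged 10 counts or more, the 5 highest and 5 lowest fold changes of the same sign at all doses, the genes of the 3 selenium lists, the 3 members of each other list with the lowest p, and the 5 lowest interaction p, of which the text names a part. Members and lists were chosen with earlier results of these data known. The labels give no cage or batch, so p-values measure the spread between these samples only.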

Additional observations from a re-analysis of the deposited data

Results flagged for a closer look

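For each named gene and for the reads on genes, the gap of the highest or lowest of 5 mice to its nearest neighbour was divided by the range of the group, and a ratio above Dixon's critical value of 0.71 marked a mouse that stood apart. Of 426 groups of 5 tested, 46 passed, where chance alone flags about 1 in 20 groups (21.3 of 426). The ratios follow in parentheses. Se_Ctr library 28 stood above its group for B3gat1 (0.771) and Gabra5 (0.765) and below its group for Maf (0.761) and Rpl35 (0.868). LD library 14 stood above its group for Mtmr9 (0.814) and Ifit3 (0.745) and below its group for Ap1ar (0.714). Se_HD library 24 stood above its group for Sepw1 (0.755), Gabra5 (0.795) and Fibcd1 (0.858). Se_HD library 6 stood above its group for Ap1ar (0.849). HD library 21 stood above its group for Mt2 (0.727), Lrp8 (0.847), Isg15 (0.911), Rsad2 (0.868) and Ifit3 (0.788) and below its group for Pdyn (0.851). Ctr library 1 stood above its group for Sparc (0.714) and Pomc (0.996). LD library 20 stood above its group for Sdc4 (0.758), Csf3r (0.728) and Calr (0.847) and below its group for Gad1 (0.742). LD library 8 stood above its group for Pdia3 (0.794). HD library 15 stood above its group for Pdia3 (0.86) and Calr (0.769) and below its group for Secisbp2 (0.735) and reads on genes (0.821). Se_Ctr library 22 stood above its group for Ftl1 (0.716) and below its group for SNORA53 (0.735). Se_LD library 5 stood above its group for SNORA53 (0.761). Ctr library 13 stood above its group for AC027184.1 (0.892), Dio3 (0.787), Ftl1 (0.722) and Rpl5 (0.748) and below its group for C1qc (0.72). HD library 9 stood above its group for Pomc (0.733). Se_Ctr library 10 stood above its group for Sepp1 (0.72) and below its group for Uqcrc2 (0.724). LD library 26 stood below its group for Dio2 (0.797). Se_LD library 29 stood above its group for Selenbp1 (0.725) and below its group for Arntl (0.739). Ctr library 25 stood above its group for mt-Nd6 (0.781). LD library 2 stood below its group for Man1a (0.793). Se_HD library 30 stood above its group for Tyrobp (0.723) and below its group for Cd37 (0.883).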

How the results depend on the processing

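The count of genes at an unadjusted p under 0.05 was 1109 to 1606 when single mice were left out and 676 to 1669 under the other 19 settings, with 676 without the HD dose as the one count outside 1.5 times the 1386. At an adjusted p of 0.05 the count for the pooled effect was 0 except for 1 gene without the Ctr dose. For the difference between doses, 516 genes had an unadjusted p under 0.05 when the mean had to be at least 10 normalized counts, which tests fewer genes, and 749 to 1092 when single mice were left out. At an adjusted p of 0.05 that test held 3 genes with edgeR, 34 with DESeq2 and 0 to 20 when single mice were left out, with 20 without HD library 27 and 2 without Ctr library 13. The cause was not tested. Of the genes named in the text, 1 with an unadjusted p under 0.05 changed sign, Tyrobp, at 0.022 without the HD dose. Genes that had not passed also changed sign without that dose, among them Cd37 (0.26), Gpx1 (-0.08), Gpx3 (-0.04), Lrp8 (0.03) and Sephs2 (0.0039). Without the 3 farthest libraries Gpx1 (-0.0075) and Lrp8 (0.02) were among those that did so, and without HD library 21 Lrp8 (0.02) was. Further members of the selenium lists, not named in the text, also changed sign in these fits. The labels give no replicate numbers shared between groups. A fit with each set of 6 consecutive library numbers, 1 per group, as a covariate held 1348 genes and kept 1270 of the 1386. Depth limits genes of few reads, such as Rsad2 and Clec7a.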
